A study of Mus musculus with 14 samples.

Results

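The genes described here encode complement, coagulation and fibrinolysis proteins that hepatocytes secrete into plasma. They were 38 genes chosen by symbol, of which 35 had a named probe set among the 22206 tested on the array, with 1 probe set each. C3, Klkb1 and Cpb2 had no named probe set and are not analysed here. The 35 genes comprise 16 of the complement system and 19 of coagulation and fibrinolysis.

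RNA was measured on 14 Clariom S mouse arrays, 1 array per preparation, in adult male wild-type (WT) C57Bl6 mice kept for 2 weeks on either diet. Total liver, the caudal lobe taken after the heart was perfused with saline, gave 4 arrays on CDAA and 4 on CSAA. Primary hepatocytes, freed from liver by collagenase perfusion, gave 3 arrays on CDAA and 3 on CSAA. CDAA is the choline-deficient diet, here with added cholesterol, glucose and fructose, and CSAA is its choline-supplemented control. The design text calls the preparations independent but does not tie them to single animals, so p-values measure the spread between these preparations. RNA of the 2 tissues was extracted with different kits and their values look to have been normalized as 2 sets, so levels are compared between diets within a tissue only. Values are log2 intensities made by the authors with RMA, and a difference of 1 is a doubling.

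Complement is a cascade of plasma proteins that tags and punctures microbes. It is started by C1, by mannose-binding lectins or by the alternative pathway, is amplified through C3 and ends with C5 to C9, which assemble into a pore in the target membrane. Clotting proceeds through a chain of proteases from factors XII, XI, IX, VII and X to thrombin, which turns fibrinogen into fibrin, and plasmin, made from plasminogen, dissolves it again. Hepatocytes make most of these proteins and their plasma inhibitors, and liver disease can lower their plasma levels.

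On CDAA most of the 35 genes read lower in both tissues, and among the role groups the terminal complement genes had the most negative median. In total liver 8 of the 35 genes fell and 0 rose past the threshold, an adjusted p of 0.05 in limma's moderated test, with the Benjamini-Hochberg procedure applied to the whole array. Of all tested probe sets 3.54% fell and 6.73% rose there. The 8 genes were C8b, C8a, C6, C9, Mbl1, Masp2, F11 and F10. The difference was negative for 34 of the 35 genes, with a median of -0.45 against -0.09 over all probe sets. In hepatocytes 30 genes fell and 1, Pros1, rose, where 7.74% of all probe sets fell and 11% rose. The median difference of the 35 genes was -1.30 in hepatocytes, against -0.13 over all probe sets. Masp1, C4bp, Kng1 and Vtn did not pass in hepatocytes.

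The model shared 1 estimate of the spread between the tissues, while hepatocyte arrays varied more. The median SD of the 35 genes was 0.60 in CDAA hepatocytes and 0.25 in CSAA hepatocytes, against 0.17 in CDAA total liver and 0.13 in CSAA total liver. With only the 2 groups compared in the fit, 19 genes fell in total liver, where 9.05% of all probe sets did, and 16 fell in hepatocytes, where 1.95% did. In that fit C1ra, C4b, F13b, Fga, Fgb and Plg passed in liver and not in hepatocytes. Mbl2, Cfb, Cfi, F5, F9, Fgg, Serpinc1 and Serpind1, called in hepatocytes with the shared spread, passed there in neither tissue. The 8 genes called in total liver and 17 of those called in hepatocytes passed under each of 3 fits (shared spread, the 2 groups alone, and array weights by tissue).

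Array by array the diets did not overlap for most of the genes, though some gaps were narrow, as for C2 in liver. In total liver the CDAA arrays all lay below all CSAA arrays for 27 of the 35 genes, a pattern seen in 12% of all probe sets, and all above for 0 genes, against 13.1% of all probe sets. In hepatocytes they lay all below for 30 genes, against 14.2% of all probe sets, and all above for 1 gene, against 12.4%. Averaged over the 35 genes, each of the 4 CDAA liver arrays was 0.59 to 0.75 below the CSAA mean. The 3 CDAA hepatocyte arrays were 0.93, 1.52 and 1.64 below it. The CDAA hepatocyte array of replicate 1 was the nearest of the 3 to the CSAA mean for 24 of the 35 genes.

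**Figure D1:**
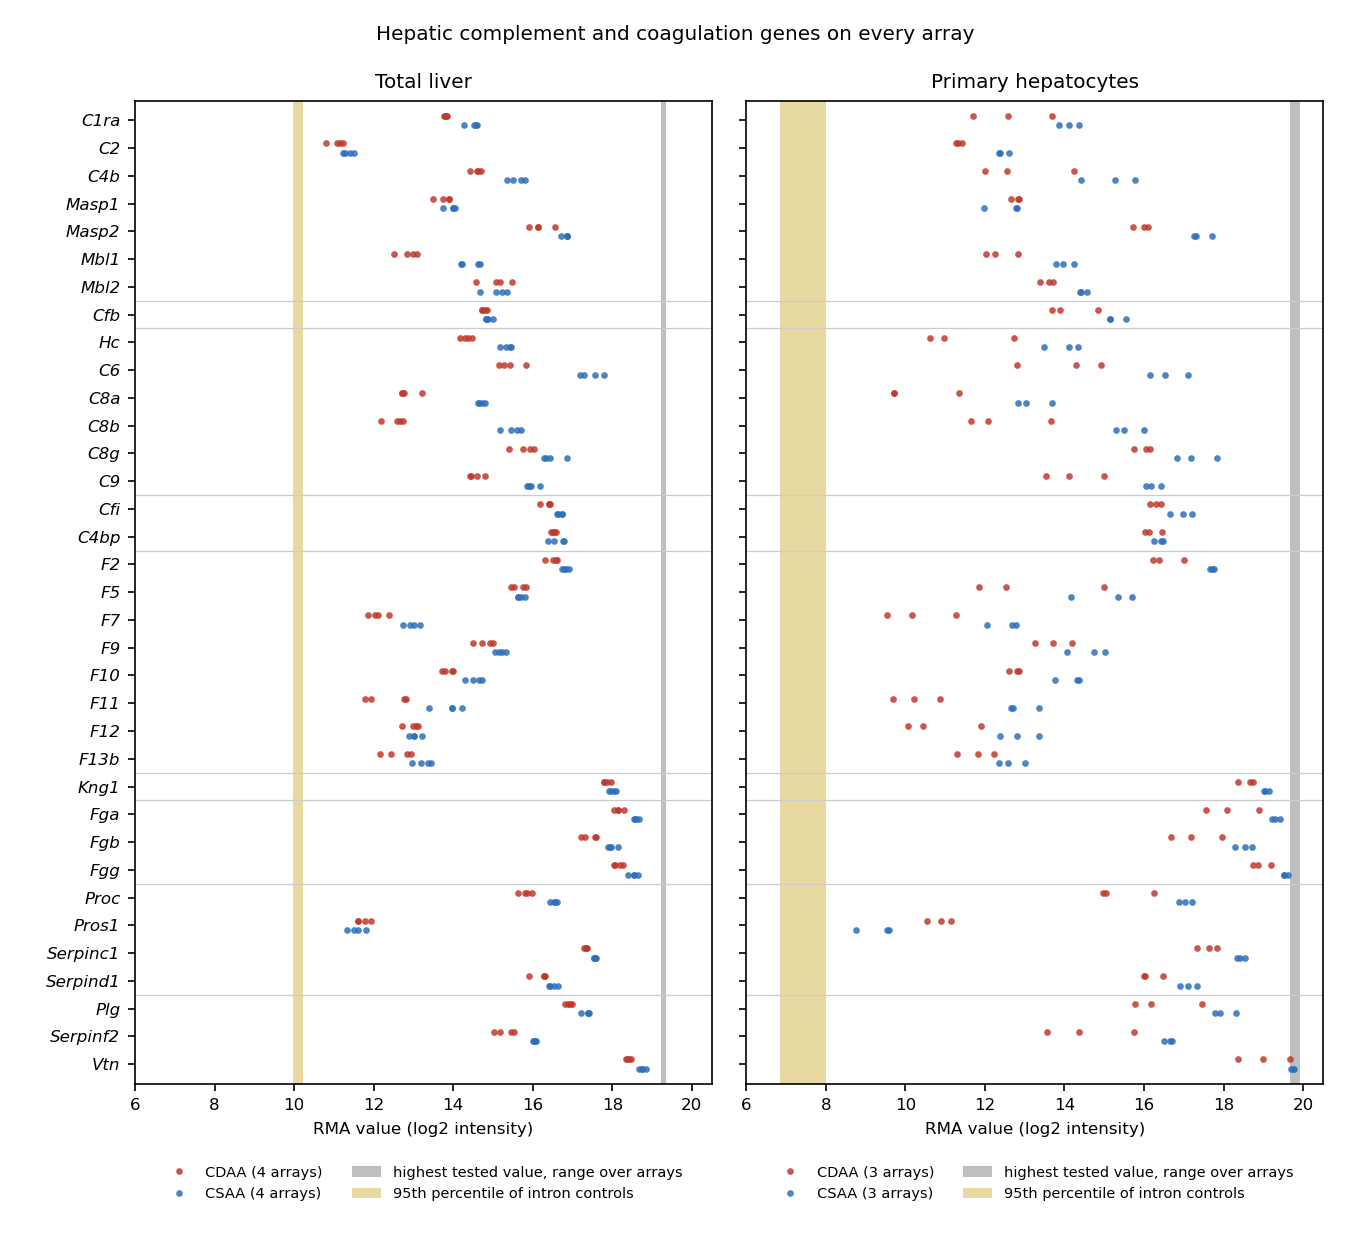
RMA value (log2 intensity, x axis) of each of the 35 genes (rows, grouped by role) on every array, for total liver (left) and primary hepatocytes (right), with CDAA in red and CSAA in blue. The grey band spans the highest tested value of the arrays and the yellow band the 95th percentile of the intron controls. CDAA points lie left of all CSAA points for 27 genes in total liver and for 30 in hepatocytes.

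For no gene was a group under background, set here on each array as the 95th percentile of its intron controls. The median gene stood at percentile 97.8 of the tested probe sets in CDAA liver and 98.4 in CSAA liver, and at 96.8 in CDAA hepatocytes and 98.4 in CSAA hepatocytes. The number among the brightest 5% of probe sets was 26 in CDAA liver and 30 in CSAA liver, and 21 in CDAA hepatocytes and 30 in CSAA hepatocytes. In bulk RNA, fewer cells of a type and less RNA per cell cannot be told apart.

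Bright probe sets in general fell more often in hepatocytes than the 7.74% of all probe sets. Among the 1492 probe sets whose mean there was at least 11.77, the level reached by 31 of the 35 genes, 22.8% fell and 14.5% rose. In total liver the 1504 probe sets from 12.95 upward fell in 8.98% and rose in 7.05% of cases. These sets of bright probe sets were drawn up after the data were seen.

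The upper limit was taken here as the highest tested value of each array, and several of these genes sat close to it. Saturation of the signal was not tested. A gene was taken as near the ceiling in a group where all its arrays were within 1 log2 unit of the highest tested value on the array. That held for Vtn in CDAA liver, and for Vtn, Fga and Fgg in CSAA liver. It held for no gene in CDAA hepatocytes and for Vtn, Fgg, Fga and Kng1 in CSAA hepatocytes. Vtn, vitronectin, a cell adhesion protein of plasma, lay 0.07 to 0.08 below the highest value on each CSAA hepatocyte array. On CDAA its hepatocyte values were 19.68, 19.00 and 18.37, against 19.78, 19.71 and 19.73 on CSAA. The CDAA array of replicate 1 was beside the CSAA arrays and the other two lay lower. The difference was -0.72 ± 0.25 (SE, adjusted p = 0.0592), for a probe set whose CSAA values were next to the highest on their arrays. Kng1, kininogen, source of bradykinin and cofactor of the contact system, differed by -0.15 in liver and -0.47 in hepatocytes (adjusted p = 0.582 and 0.0717). Its near-identical copy Kng2 differed by -0.12 in liver and -0.39 in hepatocytes, and signal of either on the other's probes cannot be told apart here.

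**Figure D2:**
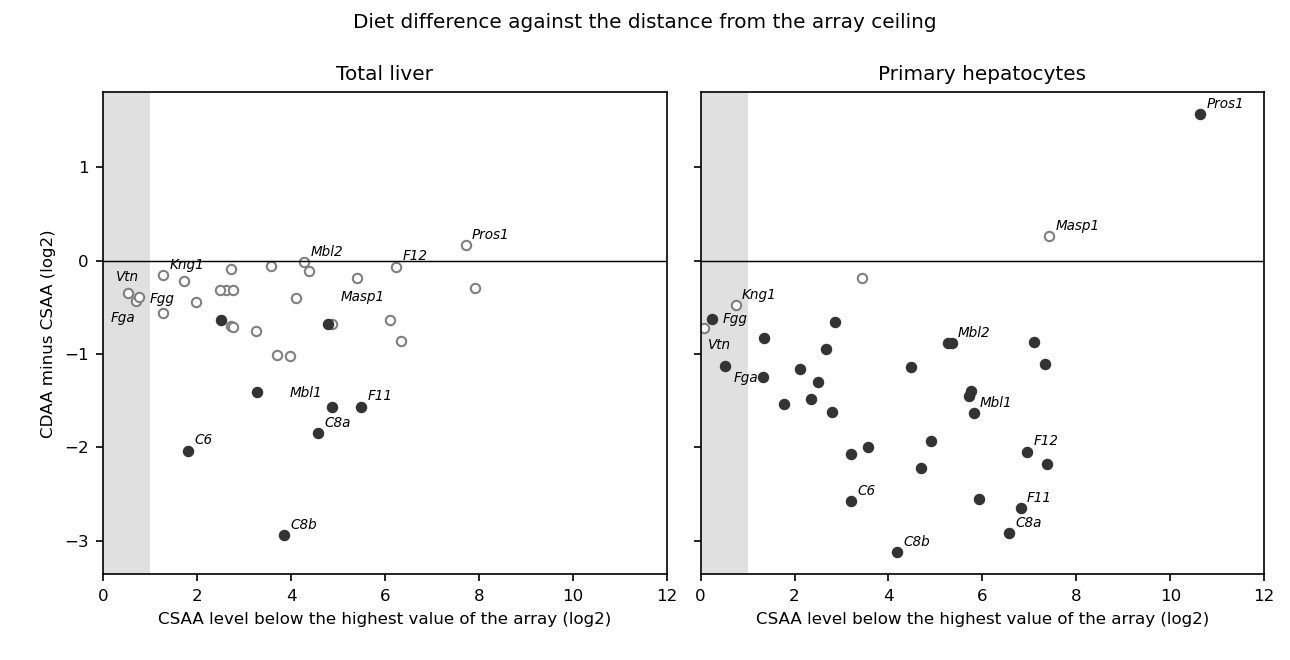
CDAA minus CSAA difference (log2, y axis) of each of the 35 genes against the distance of its CSAA level below the highest tested value of the array (log2, x axis), in total liver (left) and primary hepatocytes (right). Filled points passed the threshold and the grey strip marks the ceiling zone of 1 log2 unit. Vtn, Fga and Fgg lie in the strip in both tissues and Kng1 in hepatocytes, while C8b lies about 4 units from the limit in both.

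The terminal complement genes had the most negative median of the role groups in both tissues. All 6 (Hc, C6, C8a, C8b, C8g and C9) passed in hepatocytes and 4 of them passed in total liver, with medians of -2.57 in hepatocytes and -1.63 in liver. C8b, the beta chain of C8, read 12.19, 12.73, 12.66 and 12.58 in CDAA liver, against 15.46, 15.18, 15.69 and 15.62 in CSAA liver. The lowest CSAA array was more than 2 units above the highest CDAA array. The difference was -2.95 ± 0.34 (SE, adjusted p = 3.35e-05), a level 7.70-fold lower on CDAA. In hepatocytes C8b read 11.66, 12.08 and 13.67 on CDAA, against 15.30, 15.49 and 15.99 on CSAA. CDAA replicate 3 was the nearest to the CSAA arrays and still below them. This gave -3.13 ± 0.39 (SE, adjusted p = 2.29e-05), or 8.73-fold.

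C8a, the alpha chain, which pairs with the beta chain in the C8 complex, read 12.72, 12.77, 12.71 and 13.21 in CDAA liver, against 14.66, 14.62, 14.73 and 14.80 in CSAA liver. In hepatocytes it read 11.36, 9.71 and 9.72 on CDAA, against 13.69, 13.04 and 12.83 on CSAA. The diets were apart in both tissues, with CDAA replicate 1 the highest of the 3 hepatocyte arrays. C8a differed by -1.85 ± 0.31 in liver (adjusted p = 0.00105) and by -2.92 ± 0.36 in hepatocytes (adjusted p = 2.22e-05). C8a and C8b are neighbouring genes on chromosome 4 with no coding gene between them in the RefSeq annotation. C8g, the gamma chain, a lipocalin encoded elsewhere, read 15.41, 15.76, 16.03 and 15.93 in CDAA liver, against 16.45, 16.86, 16.34 and 16.29 in CSAA liver. Its hepatocyte values were 15.74, 16.06 and 16.15 on CDAA, against 16.83, 17.19 and 17.84 on CSAA. Again no CDAA array reached the CSAA range. C8g differed by -0.70 ± 0.23 in liver (adjusted p = 0.0686) and by -1.30 ± 0.27 in hepatocytes (adjusted p = 0.00242).

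C6, which binds C5b to start the pore, read 15.15, 15.83, 15.28 and 15.43 in CDAA liver, against 17.29, 17.19, 17.80 and 17.55 in CSAA liver. On hepatocyte arrays it read 14.93, 14.30 and 12.82 on CDAA, against 17.10, 16.54 and 16.15 on CSAA. No CDAA array reached the CSAA range in either tissue. The differences were -2.04 ± 0.36 in liver (4.10-fold, adjusted p = 0.00141) and -2.58 ± 0.41 in hepatocytes (5.98-fold, adjusted p = 0.000285). C9, the subunit that polymerizes into the pore, read 14.42, 14.61, 14.45 and 14.80 in CDAA liver, against 15.86, 15.91, 16.18 and 15.95 in CSAA liver. In hepatocytes C9 read 13.54, 14.11 and 15.01 on CDAA, against 16.17, 16.04 and 16.44 on CSAA. It was lower on every CDAA array, by 1.41 in liver (2.65-fold, adjusted p = 0.00159) and by 2.00 in hepatocytes (4.00-fold, adjusted p = 0.00011), with the highest CDAA value again in replicate 3.

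Hc, the mouse gene of C5, whose cleavage gives C5a and opens the terminal pathway, read 14.46, 14.17, 14.37 and 14.30 in CDAA liver, against 15.43, 15.18, 15.32 and 15.46 in CSAA liver. The liver arrays did not overlap, but the difference of -1.02 ± 0.35 (SE) did not pass with the shared spread (adjusted p = 0.0765) and did with the 2 liver groups alone (adjusted p = 0.000339). In hepatocytes Hc read 12.72, 10.62 and 10.96 on CDAA, against 14.34, 14.12 and 13.48 on CSAA. CDAA replicate 1 was the nearest to CSAA, and the difference was -2.55 ± 0.40 (SE, adjusted p = 0.000234).

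**Figure D3:**
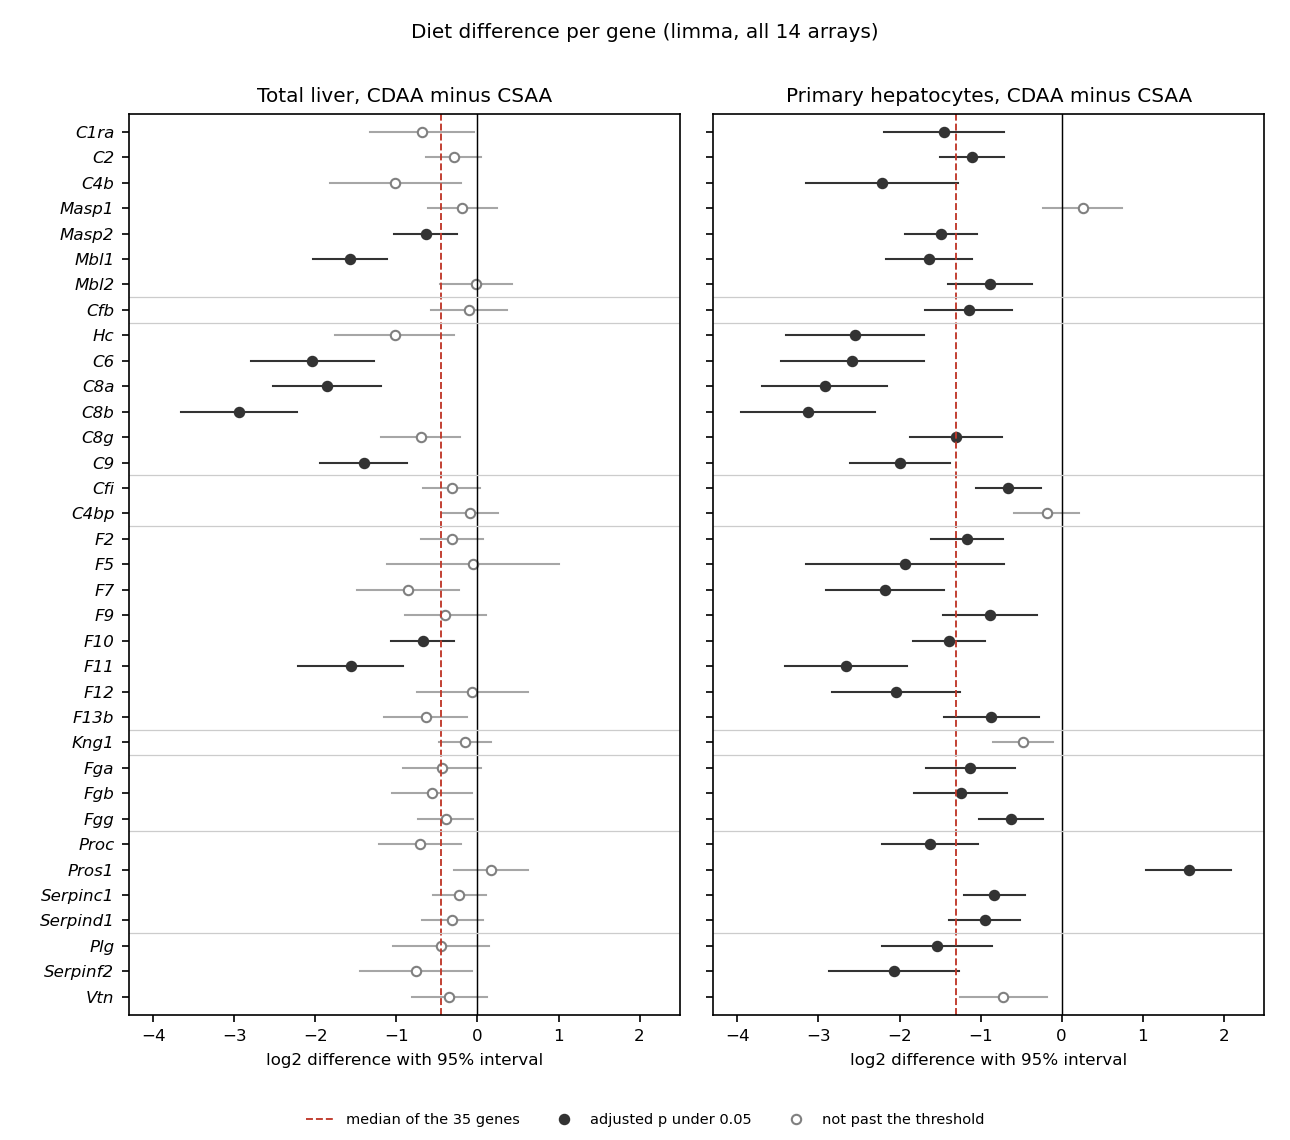
CDAA minus CSAA difference (log2, x axis) with its 95% interval for each of the 35 genes (rows, grouped by role), in total liver (left) and primary hepatocytes (right), from limma over all 14 arrays. Filled points passed the threshold, and the dashed line is the median of the 35 genes, -0.45 in liver and -1.30 in hepatocytes. C8b, C8a and C6 stand farthest left in total liver, and Pros1 alone is filled on the right, in hepatocytes.

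The classical and lectin genes, which start the cascade, split. Of 7 genes, 2 fell in liver and 6 in hepatocytes. Mbl1, mannose-binding lectin A, read 12.85, 12.51, 12.99 and 13.09 in CDAA liver, against 14.63, 14.23, 14.20 and 14.67 in CSAA liver. Its hepatocyte values were 12.84, 12.25 and 12.03 on CDAA, against 13.79, 13.97 and 14.25 on CSAA. The diets did not overlap, and Mbl1 differed by -1.57 in liver (95% interval -2.03 to -1.11, adjusted p = 0.000188) and by -1.63 in hepatocytes (-2.16 to -1.10, adjusted p = 0.000188). Mbl2, mannose-binding lectin C, read 14.57, 15.48, 15.08 and 15.17 in CDAA liver, against 15.36, 14.68, 15.08 and 15.24 in CSAA liver. These liver values overlapped fully, with a difference of -0.02 (95% interval -0.46 to 0.43, adjusted p = 0.972). In hepatocytes Mbl2 read 13.62, 13.70 and 13.39 on CDAA, against 14.40, 14.56 and 14.42 on CSAA, a fall of 0.88 (adjusted p = 0.017).

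Masp2, the lectin-bound protease that cleaves C4 and C2, read 15.90, 16.14, 16.56 and 16.13 in CDAA liver, against 16.86, 16.72, 16.86 and 16.85 in CSAA liver. The values in hepatocytes were 16.10, 16.00 and 15.72 on CDAA, against 17.26, 17.31 and 17.72 on CSAA. CDAA liver replicate 3 came nearest to the CSAA liver arrays, and the diets did not overlap. Masp2 fell by 0.64 in liver (adjusted p = 0.0365) and by 1.49 in hepatocytes (adjusted p = 9.19e-05), and the liver call was lost in 7 of 14 fits that left out 1 array, each liver array but CDAA replicate 3 (adjusted p 0.0593 to 0.128 in those). Masp1, the protease that activates it, had values of 12.85, 12.82 and 12.66 in CDAA hepatocytes, against 12.79, 12.79 and 11.97 in CSAA hepatocytes, and did not pass in either tissue (-0.19 in liver, adjusted p = 0.613, and 0.26 in hepatocytes, adjusted p = 0.481).

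C4b, the source of the C4 fragment that binds to targets, read 14.63, 14.41, 14.59 and 14.69 in CDAA liver, against 15.70, 15.36, 15.52 and 15.81 in CSAA liver. In CDAA hepatocytes C4b read 14.25, 12.01 and 12.56, against 15.28, 15.77 and 14.42 in CSAA hepatocytes. The liver groups were clearly apart, while replicate 1 of the CDAA hepatocytes was only just below the lowest CSAA array. C4b differed by -1.02 ± 0.38 in liver (SE, adjusted p = 0.112) and by -2.22 ± 0.44 in hepatocytes (SE, adjusted p = 0.00183). With the 2 groups of a tissue alone in the fit, C4b passed in liver (adjusted p = 0.000572) and not in hepatocytes (adjusted p = 0.0703). C4a, the near-identical copy of C4b, differed by -1.04 in liver and -2.30 in hepatocytes, and the 2 probe sets may share signal. C1ra, a protease of C1 that has a near-identical copy in C1rb, differed by -0.68 in liver (adjusted p = 0.181) and by -1.46 in hepatocytes (adjusted p = 0.00738). With the 2 groups alone, C1ra too passed in liver (adjusted p = 0.00403) and not in hepatocytes (adjusted p = 0.127). C2, the protease part of the classical C3 convertase, read 11.16, 10.79, 11.22 and 11.07 in CDAA liver, against 11.27, 11.22, 11.42 and 11.51 in CSAA liver. The hepatocyte arrays read 11.27, 11.32 and 11.41 on CDAA, against 12.37, 12.34 and 12.61 on CSAA. The liver groups almost touched and the hepatocyte groups were about 1 unit apart. C2 differed by -0.29 in liver (adjusted p = 0.289) and by -1.11 in hepatocytes (adjusted p = 0.000428).

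Cfb, factor B of the alternative pathway, a neighbour of C2 on chromosome 17 with no coding gene between them, read 14.72, 14.85, 14.73 and 14.81 in CDAA liver, against 14.83, 14.83, 14.89 and 14.99 in CSAA liver. The liver arrays overlapped, and the difference was -0.11 ± 0.22 (SE, adjusted p = 0.819). In hepatocytes Cfb read 13.69, 13.88 and 14.84 on CDAA, against 15.54, 15.14 and 15.16 on CSAA, and fell by 1.14 (adjusted p = 0.00428). Cfi, factor I, which degrades C3b and C4b, differed by -0.32 in liver (adjusted p = 0.256) and by -0.66 in hepatocytes (adjusted p = 0.022). C4bp, the cofactor of factor I, overlapped between diets in both tissues, at -0.09 in liver and -0.19 in hepatocytes (adjusted p = 0.794 and 0.546).

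Among the 8 clotting enzymes and cofactors, 2 fell in liver and 8 in hepatocytes. F11, factor XI, which activates factor IX, read 11.79, 11.94, 12.80 and 12.76 in CDAA liver, against 13.98, 14.22, 13.96 and 13.39 in CSAA liver. In isolated hepatocytes its values were 10.88, 10.22 and 9.68 on CDAA, against 12.66, 12.71 and 13.37 on CSAA. The diets were separate in both tissues, and F11 fell by 1.57 in liver (2.96-fold, adjusted p = 0.00314) and by 2.66 in hepatocytes (6.30-fold, adjusted p = 4.79e-05). F10, factor X, which makes thrombin from prothrombin, read 13.79, 13.99, 13.72 and 13.97 in CDAA liver, against 14.71, 14.51, 14.66 and 14.29 in CSAA liver. In hepatocytes F10 read 12.87, 12.80 and 12.60 on CDAA, against 14.36, 13.77 and 14.32 on CSAA. The CDAA arrays were the lower ones throughout. F10 fell by 0.68 in liver (adjusted p = 0.0251) and by 1.39 in hepatocytes (adjusted p = 0.000152), and the liver call was lost without liver CDAA replicate 1 or 3 or CSAA replicate 1, 2 or 3, in 5 of 14 fits that left out 1 array (adjusted p 0.0524 to 0.0762 in those). Its neighbour on chromosome 8, F7, the factor VII that tissue factor binds, read 12.03, 11.87, 12.38 and 12.10 in CDAA liver, against 13.16, 12.73, 12.91 and 13.02 in CSAA liver. In hepatocytes it read 11.27, 10.17 and 9.54 on CDAA, against 12.69, 12.05 and 12.77 on CSAA. F7 too was lower on every CDAA array, and differed by -0.86 in liver (adjusted p = 0.0811) and by -2.18 in hepatocytes (adjusted p = 0.000235).

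F12, factor XII, which starts the contact pathway, was the only one of the 35 genes whose difference between the tissues passed in the positive direction. It read 13.11, 13.07, 12.998 and 12.70 in CDAA liver, against 12.89, 13.21, 13.03 and 13.01 in CSAA liver, and these overlapped. In hepatocytes F12 read 11.91, 10.44 and 10.06 on CDAA, against 13.37, 12.80 and 12.38 on CSAA, all CDAA arrays being lower. The diet difference was -0.06 ± 0.32 in liver and -2.05 ± 0.37 in hepatocytes (SE, adjusted p = 0.932 and 0.000883). The liver difference minus the hepatocyte difference was 1.98 ± 0.49 (SE, adjusted p = 0.0431), and only 0.212% of all probe sets passed in that direction. The call was lost in 12 of 14 fits that left out 1 array (adjusted p 0.0642 to 0.143 in those), all but those without hepatocyte CDAA replicate 1 or CSAA replicate 3.

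F5, factor V, cofactor of factor X, read 15.01, 12.54 and 11.84 in CDAA hepatocytes, against 15.70, 15.34 and 14.16 in CSAA hepatocytes. CDAA replicate 1 lay inside the CSAA range. F5 fell by 1.93 ± 0.58 in hepatocytes (SE, adjusted p = 0.0275) and did not pass with the hepatocyte groups alone (adjusted p = 0.223). In liver F5 read 15.54, 15.46, 15.82 and 15.76 on CDAA, against 15.81, 15.64, 15.63 and 15.71 on CSAA. These overlapped, with a difference of -0.05 ± 0.50 (SE, adjusted p = 0.965).

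F9, factor IX, which activates factor X, read 14.49, 14.73, 14.93 and 15.003 in CDAA liver, against 15.32, 15.04, 15.24 and 15.15 in CSAA liver. Its hepatocyte values were 14.18, 13.70 and 13.27 on CDAA, against 14.73, 14.05 and 15.01 on CSAA. The hepatocyte arrays overlapped, since CDAA replicate 1 was above CSAA replicate 2. F9 differed by -0.40 in liver (adjusted p = 0.33) and fell by 0.88 in hepatocytes (adjusted p = 0.0323). F2, prothrombin, the zymogen of thrombin, read 16.58, 16.61, 16.50 and 16.32 in CDAA liver, against 16.91, 16.84, 16.74 and 16.78 in CSAA liver. In hepatocytes F2 read 17.02, 16.39 and 16.23 on CDAA, against 17.77, 17.65 and 17.70 on CSAA. The gap was narrow in liver and wider in hepatocytes. F2 differed by -0.31 in liver (adjusted p = 0.319) and by -1.16 in hepatocytes (adjusted p = 0.000803). F13b, the carrier chain of factor XIII, differed by -0.64 in liver (adjusted p = 0.11) and by -0.87 in hepatocytes (adjusted p = 0.0388).

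The 3 fibrinogen chains, genes side by side on chromosome 3, fell in hepatocytes and did not pass in liver with the shared spread. Fga, the alpha chain, read 18.30, 18.13, 18.04 and 18.15 in CDAA liver, against 18.57, 18.54, 18.59 and 18.67 in CSAA liver. The values in hepatocytes were 18.89, 18.08 and 17.57 on CDAA, against 19.41, 19.30 and 19.22 on CSAA. No CDAA array reached the CSAA range in either tissue, and Fga differed by -0.44 in liver (adjusted p = 0.257) and by -1.13 in hepatocytes (adjusted p = 0.0057). Fgb, the beta chain, read 17.56, 17.22, 17.32 and 17.59 in CDAA liver, against 17.90, 17.95, 17.96 and 18.14 in CSAA liver. The hepatocyte arrays read 17.95, 16.67 and 17.18 on CDAA, against 18.73, 18.54 and 18.28 on CSAA. Fgb was lower on every CDAA array, and differed by -0.57 in liver (adjusted p = 0.149) and by -1.25 in hepatocytes (adjusted p = 0.0035). Fgg, the gamma chain, read 18.26, 18.08, 18.04 and 18.20 in CDAA liver, against 18.55, 18.39, 18.55 and 18.66 in CSAA liver. In isolated hepatocytes its values were 19.20, 18.74 and 18.86 on CDAA, against 19.51, 19.63 and 19.53 on CSAA. The groups did not overlap, but lay close together. Fgg differed by -0.39 in liver (adjusted p = 0.144) and by -0.62 in hepatocytes (adjusted p = 0.0256). Fga and Fgg were near the ceiling on CSAA. With the hepatocyte groups alone, none of Fga, Fgb and Fgg passed in hepatocytes (adjusted p = 0.113, 0.0842 and 0.192). With the liver groups alone, Fga and Fgb passed in liver (adjusted p = 0.0342 and 0.0171) and Fgg did not (adjusted p = 0.0597). Which tissue passed for Fga and Fgb thus depended on the fit, as it did for C1ra, C4b, F13b and Plg.

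Of the 4 anticoagulants, 3 fell in hepatocytes and 1 rose. Pros1, protein S, the cofactor of activated protein C, is made by endothelial cells and macrophages as well as by hepatocytes. It read 11.15, 10.90 and 10.55 in CDAA hepatocytes, against 9.59, 9.54 and 8.76 in CSAA hepatocytes. All 3 CDAA arrays were higher, by 1.57 ± 0.25 (SE, 2.97-fold, adjusted p = 0.00024). In liver Pros1 read 11.60, 11.60, 11.93 and 11.79 on CDAA, against 11.60, 11.34, 11.81 and 11.51 on CSAA, an overlap with a difference of 0.17 ± 0.21 (SE, adjusted p = 0.688). The difference between the 2 diet effects was -1.40 ± 0.33 (SE, adjusted p = 0.0294), where 2.36% of all probe sets passed in that direction. It was lost in 8 of the 14 fits that left out 1 array (adjusted p 0.0553 to 0.0786 in those). These left out hepatocyte CDAA replicate 2 or CSAA replicate 3, liver CDAA replicate 1, 2 or 4, or liver CSAA replicate 1, 3 or 4.

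Proc, protein C, the protease that inactivates factors V and VIII, read 15.64, 15.86, 15.81 and 15.98 in CDAA liver, against 16.52, 16.61, 16.56 and 16.43 in CSAA liver. In hepatocytes it read 16.24, 15.04 and 14.97 on CDAA, against 17.21, 17.04 and 16.88 on CSAA. Replicate 1 was again the highest CDAA hepatocyte array. Proc differed by -0.71 in liver (adjusted p = 0.075) and by -1.62 in hepatocytes (adjusted p = 0.000491). Serpinc1, antithrombin, which blocks thrombin and factor X, read 17.38, 17.34, 17.29 and 17.34 in CDAA liver, against 17.56, 17.59, 17.55 and 17.54 in CSAA liver. Its hepatocyte values were 17.83, 17.65 and 17.33 on CDAA, against 18.42, 18.35 and 18.53 on CSAA. Its liver values were tight within each diet. Serpinc1 differed by -0.22 in liver (adjusted p = 0.418) and by -0.83 in hepatocytes (adjusted p = 0.00348). Serpind1, heparin cofactor II, differed by -0.31 in liver (adjusted p = 0.313) and by -0.95 in hepatocytes (adjusted p = 0.00357). In each of these 3 genes the CDAA arrays lay below all CSAA arrays in both tissues.

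Plg, plasminogen, read 16.88, 16.95, 16.80 and 16.98 in CDAA liver, against 17.39, 17.21, 17.41 and 17.40 in CSAA liver. The values in hepatocytes were 17.46, 16.18 and 15.78 on CDAA, against 18.32, 17.92 and 17.79 on CSAA. The diets did not overlap, and Plg differed by -0.45 in liver (adjusted p = 0.355) and by -1.53 in hepatocytes (adjusted p = 0.00273). With the 2 groups of a tissue alone in the fit, Plg passed in liver (adjusted p = 0.031) and not in hepatocytes (adjusted p = 0.0846). Serpinf2, alpha-2-antiplasmin, the main plasma inhibitor of plasmin, read 15.53, 15.02, 15.17 and 15.45 in CDAA liver, against 16.04, 16.08, 16.05 and 16.02 in CSAA liver. The hepatocyte arrays read 15.74, 14.37 and 13.55 on CDAA, against 16.71, 16.51 and 16.65 on CSAA. All CDAA arrays were lower and spread more widely than the CSAA arrays. Serpinf2 differed by -0.76 in liver (adjusted p = 0.171) and by -2.07 in hepatocytes (adjusted p = 0.000891).

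Between the tissues, the diet difference was more negative in hepatocytes than in liver for 33 of the 35 genes, but apart from F12 and Pros1 no gene passed the test of that difference. Without the CDAA hepatocyte array of replicate 1, that test was passed by 14 genes, 15 genes fell in liver and 29 fell in hepatocytes. The shares of all probe sets in that fit were not counted. The liver count moved because the spread is shared between the tissues. The range of values also differed between the tissues. The 95th percentile of the intron controls was 9.96 to 10.23 on liver arrays and 6.84 to 8.01 on hepatocyte arrays. The highest tested value was 19.23 to 19.36 in liver and 19.66 to 19.92 in hepatocytes. Whether log2 differences of the 2 tissues are on an equal scale was not tested.

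Markers of several other liver cell types, though not all, moved with the diet in the same arrays. Of 11 measured Kupffer cell and macrophage markers, 9 rose in CDAA liver and 11 in CDAA hepatocytes. Their mean per array was 11.62 to 12.37 in CDAA liver and 8.61 to 9.27 in CSAA liver, and 11.94 to 13.47 in CDAA hepatocytes and 5.24 to 5.44 in CSAA hepatocytes. In CSAA hepatocytes 10 of the 11 were under background, and in CDAA hepatocytes 0 were. Of 10 sinusoidal endothelial markers, 1 rose in liver and 9 in hepatocytes, with array means of 9.98 to 11.11 in CDAA hepatocytes and 6.27 to 6.92 in CSAA hepatocytes. Of 9 stellate cell markers, 5 rose in liver and 9 in hepatocytes, and of 7 neutrophil markers 3 were called higher in liver and 4 in hepatocytes. All 7 neutrophil markers were under background in both liver groups and in CSAA hepatocytes, and 5 in CDAA hepatocytes. Of the stellate markers, 7 were under background in CSAA liver and 4 in CDAA liver, and 8 in CSAA hepatocytes and 2 in CDAA hepatocytes. Of 5 cholangiocyte markers 0 passed in either tissue. Of 6 platelet and megakaryocyte markers 0 passed in liver, and 2 rose and 1 fell in hepatocytes. Most of these last 2 lists were under background in every group. The part of these markers' cells in the falls of the 35 genes, and in the rise of Pros1, was not tested.

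Hepatocyte markers were bright on all arrays of both tissues. Their mean over 13 genes was 16.88 to 17.15 in CDAA liver and 17.15 to 17.23 in CSAA liver, and 16.53 to 17.35 in CDAA hepatocytes and 17.44 to 17.61 in CSAA hepatocytes. Their median difference was -0.16 in liver, where 1 rose and 0 fell, and -0.74 in hepatocytes, where 1 rose and 4 fell. Centred on these markers, a setting chosen after the data were seen, the 35 genes had medians of -0.33 in liver and -0.90 in hepatocytes, with 29 and 32 of them negative. There 6 genes fell in liver and 22 in hepatocytes, but the share of all probe sets that fell in this setting was not counted.

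**Figure D4:**
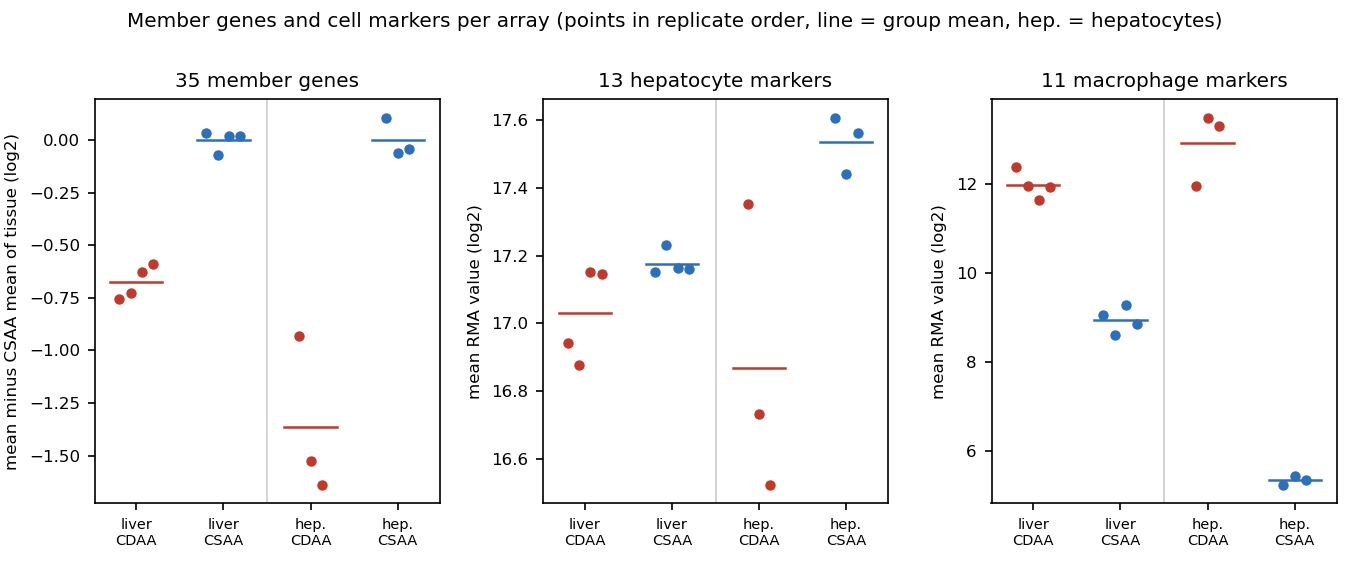
Mean log2 level per array of the 35 genes (left, as the difference from the CSAA mean of the same tissue), of 13 hepatocyte markers (middle) and of 11 macrophage markers (right), with CDAA in red, CSAA in blue and a line at each group mean. The CDAA hepatocyte array of replicate 1 has the smallest fall of the 35 genes, -0.93, the highest hepatocyte marker mean of its group, 17.35, and the lowest macrophage marker mean of its group, 11.94. Of the lists not drawn, its stellate mean was the lowest of its group, 9.11. Its endothelial mean, 11.07, was near that of replicate 2 (11.11), and the lowest was in replicate 3 (9.98). A link between these means and the falls was not tested.

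The other genes of these pathways, taken from lists of 67 genes of which 60 were measured, were called higher more often than lower. So were all tested probe sets, with 6.73% higher and 3.54% lower in liver, and 11% higher and 7.74% lower in hepatocytes. In liver 17 rose and 3 fell, with a median of 0.13, and in hepatocytes 24 rose and 9 fell, with a median of 0.17. Of the 17 that rose in liver, 9 were under background in both diets and 4 on CSAA alone. Of the 24 that rose in hepatocytes, 3 were under background in both diets, 19 in 1 diet, and 2 in neither. The chains of C1q, the recognition part of C1, which macrophages make, rose in liver by 1.84 for C1qa and 2.75 for C1qb (adjusted p = 0.00419 and 0.00179). C1qc, the third chain, rose by at least 1.41 in liver, as it was not above background on CSAA. In hepatocytes the rise was at least 6.22 for C1qa, 6.82 for C1qb and 5.33 for C1qc, because none of the 3 was above background on CSAA. C1rl, a relative of C1r, fell by 1.24 in liver and by 1.61 in hepatocytes (adjusted p = 0.005 and 0.00105). C1s1, the other protease of C1, differed by -0.38 in liver and -1.14 in hepatocytes (adjusted p = 0.334 and 0.00527).

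Of 9 complement receptors, 5 rose in liver and 7 in hepatocytes, and 0 fell. C3ar1, the receptor of C3a, read 9.54 to 10.49 in CDAA liver, against 5.68 to 6.82 in CSAA liver, which is under background. C5ar1, the receptor of C5a, and Itgax, a chain of a C3 fragment receptor, passed in both tissues but were under background in all 4 groups. Itgam and Itgb2, integrin chains that pair in another such receptor, passed in both tissues and were above background in CDAA hepatocytes only. Properdin (Cfp), the stabilizer of the alternative convertase, rose by 1.75 in liver (adjusted p = 0.0223) and by at least 6.77 in hepatocytes. Vsig4, a complement receptor of Kupffer cells, averaged 12.95 in CDAA liver and 11.45 in CSAA liver (adjusted p = 0.0535) and rose by at least 6.15 in hepatocytes. Serping1, the inhibitor of C1, differed by -0.60 in liver and -1.11 in hepatocytes and did not pass (adjusted p = 0.335 and 0.073). Cd93, a surface protein of endothelial and myeloid cells, passed in liver but was under background there in both diets. Cfhr2 differed by -0.70 in liver (adjusted p = 0.0533) and fell by 1.49 in hepatocytes (adjusted p = 0.000471).

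On the clotting side, F8, factor VIII, which sinusoidal endothelium makes, differed by 0.38 in liver (adjusted p = 0.468) and by 3.25 in hepatocytes (adjusted p = 3.85e-06), with 11.004 to 12.46 in CDAA hepatocytes against 8.23 to 8.42 in CSAA hepatocytes. Hgfac, the activator of hepatocyte growth factor, fell by 1.17 in liver and 3.08 in hepatocytes (adjusted p = 0.0208 and 8.69e-06). Tfpi2, a protease inhibitor, fell by 1.34 in liver and 1.06 in hepatocytes (adjusted p = 0.00957 and 0.047). Procr, the endothelial receptor of protein C, passed in both tissues and was above background in CDAA hepatocytes only. F3, tissue factor, and F13a1, the catalytic chain of factor XIII, were under background in all 4 groups. Of 12 genes that activate or inhibit fibrinolysis, 6 rose in each tissue and 0 fell. Anxa2, which binds plasminogen at cell surfaces, rose by at least 2.09 in liver and 3.80 in hepatocytes. Its partner S100a10 rose by 1.75 in liver and 1.32 in hepatocytes (adjusted p = 0.00117 and 0.0136). Plau, urokinase, read 7.46 to 8.59 in CDAA liver and 4.70 to 4.99 in CSAA liver, both under background, and rose by at least 0.37 in hepatocytes. Plaur, the urokinase receptor, passed in both tissues, under background in both liver groups and in CSAA hepatocytes. Fgl2, a fibrinogen relative, passed in both tissues and averaged 9.78 in CDAA liver and 8.05 in CSAA liver, the second under background. Plat, tissue plasminogen activator, and Thbd, thrombomodulin, did not pass in liver (adjusted p = 0.0526 and 0.155) and were under background there.

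**Figure D5:**
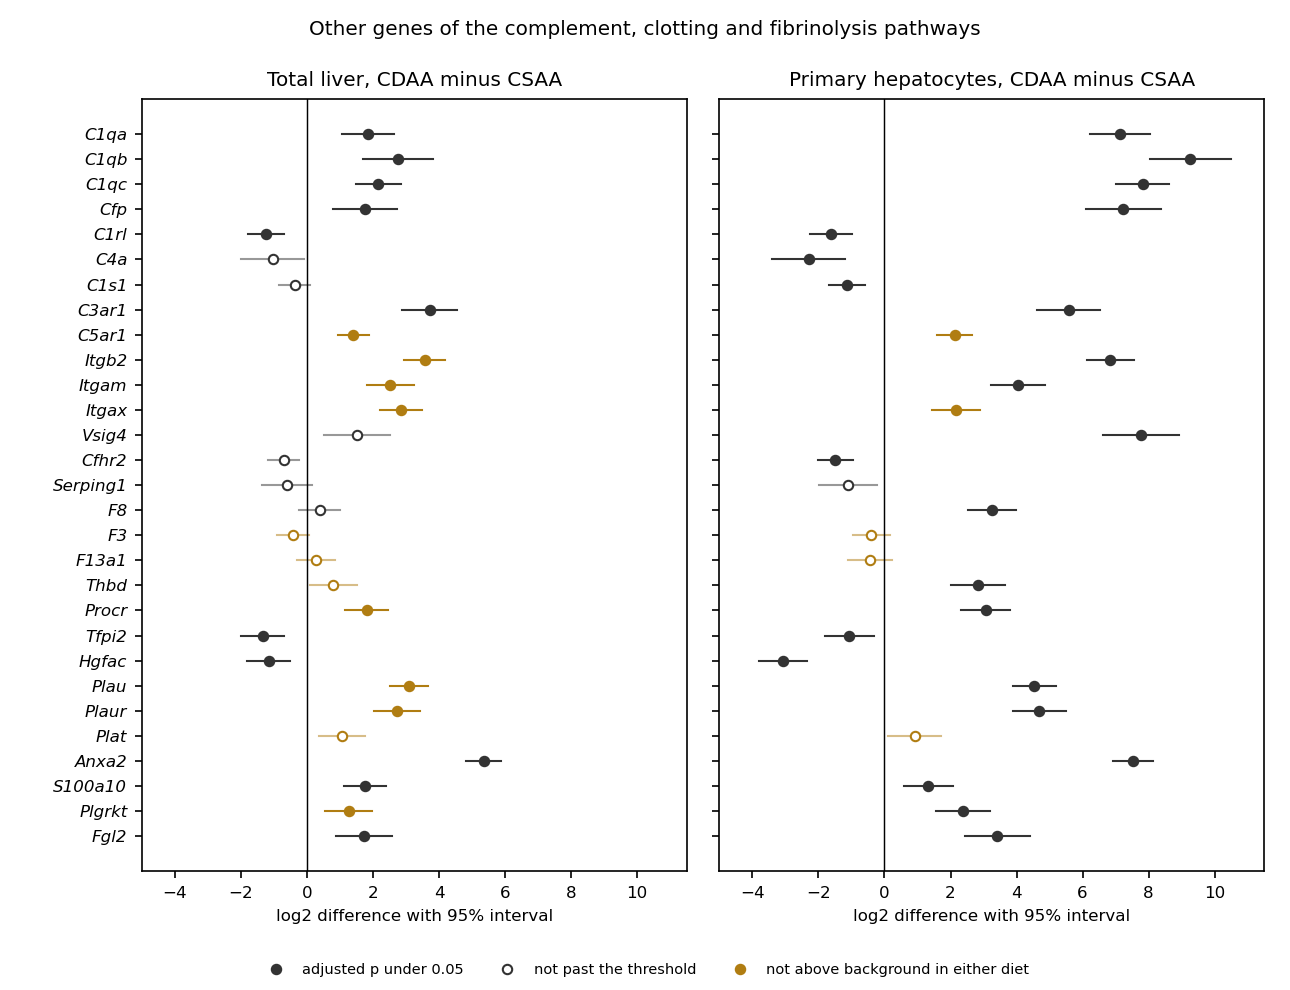
CDAA minus CSAA difference (log2, x axis) with its 95% interval for 29 other genes of the complement, clotting and fibrinolysis pathways (rows), in total liver (left) and primary hepatocytes (right). Filled points passed the threshold, and brown points were not above background in either diet. The C1q chains, Cfp and C3ar1 lie to the right, and C1rl, Tfpi2 and Hgfac to the left.

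Counts for lists of other secreted liver proteins are given without a test of their difference from the 35 genes. Of 23 acute phase genes, 7 rose and 0 fell in liver (median 0.41, where 6.73% of all probe sets rose and 3.54% fell). In hepatocytes 8 of these rose and 3 fell (median 0.15, where 11% of all probe sets rose and 7.74% fell). Of 12 apolipoprotein genes, 1 rose and 1 fell in liver, with a median of -0.24. In hepatocytes 1 apolipoprotein gene rose and 5 fell, 9 of the 12 differences were negative with a median of -0.55, and for 7 genes the CDAA arrays all lay below the CSAA arrays.

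RefSeq promoters (GRCm38.p6) were at hand for 27 of the 35 genes, as the bases before the annotated start. The 8 printed are 5 genes of the complement pore and F11, among the most negative differences, and the neighbouring fibrinogen genes Fga and Fgb, whose changes were smaller. Each line holds 200 bases before the start, 5′ to 3′, with capitals for GTTAAT, the core of the HNF1 site, and for TTCNNNGAA, the STAT site, on either strand. They lie at chr2:35061413-35061612 on the minus strand for Hc, chr15:4727010-4727209 on the plus strand for C6, chr4:104876399-104876598 on the minus strand for C8a, chr4:104766117-104766316 on the plus strand for C8b, chr15:6445146-6445345 on the plus strand for C9, chr8:45262032-45262231 on the minus strand for F11, chr3:83025953-83026152 on the plus strand for Fga, chr3:83049864-83050063 on the minus strand for Fgb.
Hc: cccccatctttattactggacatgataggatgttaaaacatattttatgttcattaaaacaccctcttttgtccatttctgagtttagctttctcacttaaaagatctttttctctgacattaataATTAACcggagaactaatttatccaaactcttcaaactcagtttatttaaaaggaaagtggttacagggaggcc
C6: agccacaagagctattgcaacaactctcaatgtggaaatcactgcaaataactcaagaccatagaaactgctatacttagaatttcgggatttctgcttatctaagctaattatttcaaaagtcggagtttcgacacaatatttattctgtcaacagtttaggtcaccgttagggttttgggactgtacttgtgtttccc
C8a: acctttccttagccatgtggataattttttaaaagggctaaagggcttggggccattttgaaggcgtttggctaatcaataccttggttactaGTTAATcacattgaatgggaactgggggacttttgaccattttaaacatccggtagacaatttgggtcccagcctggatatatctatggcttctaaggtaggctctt
C8b: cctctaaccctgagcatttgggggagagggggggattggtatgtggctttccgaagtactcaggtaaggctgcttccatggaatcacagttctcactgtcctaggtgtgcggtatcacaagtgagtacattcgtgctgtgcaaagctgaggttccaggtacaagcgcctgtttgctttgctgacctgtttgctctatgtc
C9: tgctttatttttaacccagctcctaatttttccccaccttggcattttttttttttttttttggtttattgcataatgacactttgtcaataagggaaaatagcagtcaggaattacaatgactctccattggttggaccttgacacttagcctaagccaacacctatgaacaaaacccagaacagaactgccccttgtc
F11: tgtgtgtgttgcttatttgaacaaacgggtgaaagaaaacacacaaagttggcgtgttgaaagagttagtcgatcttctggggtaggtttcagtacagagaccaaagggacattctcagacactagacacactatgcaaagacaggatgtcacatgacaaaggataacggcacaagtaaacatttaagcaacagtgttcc
Fga: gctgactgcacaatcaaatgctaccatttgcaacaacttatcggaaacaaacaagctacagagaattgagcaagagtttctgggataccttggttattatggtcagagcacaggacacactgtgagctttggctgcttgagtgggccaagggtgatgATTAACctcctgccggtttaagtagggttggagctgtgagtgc
Fgb: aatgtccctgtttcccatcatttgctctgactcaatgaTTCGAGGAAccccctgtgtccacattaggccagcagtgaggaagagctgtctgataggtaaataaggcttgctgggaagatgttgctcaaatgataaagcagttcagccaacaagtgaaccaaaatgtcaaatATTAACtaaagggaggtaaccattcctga
Within the printed bases, HNF1 matches stood in Hc, C8a, Fga and Fgb. Fgb held a STAT match there as well, 162 to 154 bases before the start, which does not overlap its HNF1 match at 29 to 24.

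Counted over 250 bases before the start, GTTAAT stood in 9 of the 27 promoters (33.3%), against 6.4% of 32851 mouse promoters, and C8b was among the 9 through a match beyond the printed bases. Each of the 27 genes was counted on its first listed promoter, while the 32851 are all listed promoters, not limited to 1 per gene. TTCNNNGAA stood in 6 (22.2%), against 7.0%, and C8a and Fga were among the 6 through matches beyond the printed bases. Of 6 further motifs searched on both strands, TTNNGNAA, a C/EBP form, stood in 12 (44.4%, against 36.8%), CTGGGA, an interleukin-6 response form, in 12 (44.4%, against 27.0%), CAAAGT, an HNF4 form, in 5 (18.5%, against 12.6%), ATTGAT, an ONECUT form, in 5 (18.5%, against 6.7%), TATAAA, the TATA box, in 2 (7.4%, against 12.4%) and TGTTTAC, a FOXA form, in 1 (3.7%, against 3.2%). GTTAAT was in 2 of the 8 promoters of the genes that fell in liver. These are letter matches, not binding sites. On a list of regulators of complement and clotting genes, 18 were measured, of which 1 rose and 1 fell in liver. In hepatocytes 4 of them rose and 5 fell, with differences from -2.12 to 4.02. Of the factors, Hnf4a and Cebpa were picked after their values were seen. Hnf4a differed by -0.52 in liver (adjusted p = 0.46) and by -1.72 in hepatocytes (adjusted p = 0.0143). Cebpa differed by -1.07 in liver (adjusted p = 0.078) and by -2.12 in hepatocytes (adjusted p = 0.00186). A link between the regulators and the falls was not tested.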

How the data were processed

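The data are 14 Clariom S mouse arrays, grouped by tissue and diet as titled. The deposited values are log2 intensities, made by the authors with RMA per the submitters' processing notes, and its version and settings are not given in the sources used here. RMA in general corrects background, equalizes the arrays' distributions and summarizes probes per probe set. The 6640 control probe sets were left out and 22206 probe sets tested without a filter on dim ones. Symbols came from the platform annotation. The effect of alternative settings is given in the closing section.

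With limma 3.58.1 (R 4.3.3), 1 model held a mean for each of the 4 groups. Its contrasts were the diet effect, CDAA minus CSAA, of total liver and of hepatocytes, and the liver effect minus the hepatocyte effect. The moderated tests were two-sided and adjusted by Benjamini-Hochberg over all tested probe sets, at 0.05. Background was set on each array at the 95th percentile of its 5222 intron controls. Where a group was below it, a rise is a bound from that percentile. The code was tested on simulated data. Its pass condition covered only the case of 1 spread for both tissues, which these arrays do not have. A spread per tissue was simulated without a pass condition. A gene with several probe sets was to be shown by the brightest, but each of the 35 had 1.

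The genes and lists were chosen with earlier results of these data known. Named in the text are the members past the threshold in any contrast and a fixed set of 20, then the others by group, and pathway genes past the threshold in liver (up to 5 per list) with a fixed set of 14, of which 2 are not reported here. Kng1, C4bp, Masp1 and Vtn were named because they did not pass, and C4a, C1s1, Kng2, C1rb, Cfhr2, Vsig4, Hnf4a and Cebpa beyond the rule, after their values were seen. Promoters came from RefSeq. The number of arrays limits the precision.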

Additional observations from a re-analysis of the deposited data

Results flagged for a closer look

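Among 70 pairs of a gene and a total liver diet group, 6 had an array standing apart from the other 3 of its group, with a gap over the group's range above Dixon's 95% critical value for 4 arrays. Chance flags about 1 in 20 groups. On CDAA these were C8a in replicate 4 at 13.21 (others 12.71 to 12.77), Cfi in replicate 2 at 16.19 (others 16.41 to 16.43) and Serpind1 in replicate 2 at 15.90 (others 16.28 to 16.31). On CSAA they were Masp1 in replicate 3 at 13.74 (others 13.999 to 14.04), Masp2 in replicate 2 at 16.72 (others 16.85 to 16.86) and Plg in replicate 2 at 17.21 (others 17.39 to 17.41). Hepatocyte groups of 3 arrays were not examined this way. The diet effects differed between tissues, in the test of the difference itself, for F12 (1.98, liver minus hepatocytes, adjusted p = 0.0431) and Pros1 (-1.40, adjusted p = 0.0294).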

How the results depend on the processing

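The count of genes that fell in liver (8) was 19 with only the 2 groups in the fit, where 9.05% of all probe sets fell. It was 18 with array weights by tissue, where 9.47% of all probe sets fell, and 13 with arrays centred on their median. When 1 array was left out it ranged from 6 to 15, with 15 without CDAA hepatocyte replicate 1. The hepatocyte count (30) was 16 with the 2 groups alone, where 1.95% of all probe sets fell. It was 25 with array weights, where 3.35% fell, and 25 to 30 when 1 array was left out. Shares of all probe sets were not counted for the other alternative settings. The 2 calls on the difference of diet effects became 1 with trend and robust moderation and ranged from 0 to 14 when 1 array was left out, with 14 without CDAA hepatocyte replicate 1. Within 2 log2 units of the highest value, 4 genes lay near the ceiling in CDAA liver, 6 in CSAA liver, 3 in CDAA hepatocytes and 6 in CSAA hepatocytes. Leaving out the 30% dimmest probe sets kept the counts at 8, 30 and 2, and with the 90th percentile of the intron controls 0 genes were under background in any group. The median over all probe sets was -0.23 in liver and -0.29 in hepatocytes with arrays centred on their median, and 0.03 and 0.28 with hepatocyte markers. Whether equal replicate numbers mark paired arrays was checked on deviations from group means, which correlated at 0.35, -0.21 and 0.26 for hepatocytes and -0.13 to 0.02 for liver, and they were not taken as pairs. With the replicate number as a block, 7 genes fell in liver, 26 fell in hepatocytes and the same number, 2, passed for the difference. Among named genes the block lost Masp2 and F10 in liver (adjusted p = 0.0834 and 0.0654) and F9 and Fgg in hepatocytes (0.0534 and 0.0652), and gained Hc in liver (0.0340). Over all alternatives the adjusted p ranged from 0.000339 to 0.159 for Hc in liver. The hepatocyte call of F5 was lost without CDAA replicate 2 or 3 or CSAA replicate 1 or 2 (adjusted p 0.0898 to 0.117), that of Fgg without the same arrays (0.0507 to 0.104), that of F9 without CDAA replicate 2 or 3 or CSAA replicate 1 or 3 (0.0814 to 0.119) and that of Mbl2 without CDAA replicate 3 or CSAA replicate 2 (0.0522 to 0.0573). Signs that turned were all of uncalled values. Centring on hepatocyte markers gave Mbl1 -0.23, C8b -0.10 and Fgg -0.053 for the difference, and Mbl2 0.10, Cfb 0.012, F5 0.066 and F12 0.055 in liver. Quantile normalization within tissue gave Mbl2 0.053 and F5 0.013 in liver. When 1 array was left out, the difference of diet effects ranged from -0.11 to 0.29 for Mbl1, from -0.054 to 1.001 for C6 and from -0.22 to 0.78 for C8b. The liver difference then ranged from -0.15 to 0.15 for Mbl2, from -0.11 to 0.0085 for F5 and from -0.11 to 0.025 for F12. The cause of these changes was not tested. The mean over several probe sets was not run, since each gene had 1.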
